A study of Mus musculus with 36 samples.

Results

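Mfsd2a, Cldn5, Pecam1, Abcb1a, Flt1, Kdr, Slco1c1, Ocln, Cdh5 and Tek are genes known for their expression in the endothelium of brain vessels and for its barrier. They were chosen by name, as 10 of the 56980 genes in the count table, and all 10 passed the filter on low counts. The counts come from polyA-selected RNA of the brains of 36 mice aged 37 to 45 days. Mice either lacked Ndufs4 (KO) or were wild type (WT), and on 3 successive days were gavaged with vehicle or with CP2, which inhibits complex I of the mitochondrial respiratory chain. Ndufs4 encodes a subunit of that complex, and its loss in mice models Leigh syndrome. Genotype, treatment and a letter in the sample title, F or M, gave 8 groups. The F groups were WT with vehicle, WT with CP2, KO with vehicle and KO with CP2, with 5 mice each. The M groups were WT with CP2 and KO with CP2, with 5 mice each, and WT with vehicle and KO with vehicle, with 3 mice each. Single mice are named by the L number in their sample title. The strain is not given in the sources used here, and the design text names hippocampus and cortex while each sample is labelled brain, so the mix of regions is unknown.

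Brain endothelial cells are joined by tight junctions, take up very little by vesicles, export many drugs through efflux pumps and import nutrients and hormones through dedicated carriers. Neighbouring neurons, astrocytes and pericytes keep them in this state through secreted signals, among them VEGF, angiopoietin and Wnt ligands. In bulk tissue, fewer endothelial cells and less RNA per endothelial cell cannot be told apart.

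Gene counts per sample ranged from 4.61e+07 to 8.86e+07, with a median of 5.47e+07. The 10 genes had from 383 counts (lowest sample, Ocln) to 5876 counts (highest sample, Flt1), for which counting error alone has an SD of 5.11% and 1.31%. The out-of-gene read share is the share of reads that the authors' counting assigned to no gene feature. Whether it includes reads within introns is not given in the sources used here. This share ran from 5.09% to 13.2% and differed between groups, from 5.995% ± 0.740 (SD, n = 5) in WT vehicle F to 12.1% ± 0.885 (SD, n = 3) in KO vehicle M. Ndufs4 was at 27.4 to 39.1 CPM, counts scaled for library size, in the 18 KO samples and 38.9 to 62.8 CPM in the 18 WT samples. Xist was at least 439 CPM in each F sample and at most 0.833 CPM in the M samples, except KO CP2 M L291 with 47.3 CPM. Ddx3y, on the Y chromosome, was at 61.8 to 84.5 CPM in the M samples, including 80.8 CPM in L291, and at most 0.214 CPM in F. Each of the 12 endothelial markers, 7 pericyte markers and 5 neuron markers was detected in every sample. So were the 12 markers of choroid plexus, the epithelium that makes cerebrospinal fluid, whose summed level ranged from 211 to 3590 CPM.

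Promoter sequences were matched by symbol for 8 of the 10 genes, from RefSeq on build GRCm38.p6. The 5 shown belong to the 3 genes called in a comparison of genotype or treatment (Mfsd2a, Slco1c1 and Abcb1a) and to Tek and Flt1, whose levels moved together from sample to sample. Each run is the 250 bases before the annotated start, 5′ to 3′, with motif matches on either strand in capitals.
Mfsd2a, chr4:122961189-122961438, minus strand: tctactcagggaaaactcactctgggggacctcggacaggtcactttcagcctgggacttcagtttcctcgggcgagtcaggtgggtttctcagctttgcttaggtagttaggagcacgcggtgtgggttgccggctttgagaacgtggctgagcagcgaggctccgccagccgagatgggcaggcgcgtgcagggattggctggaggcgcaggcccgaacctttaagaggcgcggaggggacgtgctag
Slco1c1, chr6:141524104-141524353, plus strand: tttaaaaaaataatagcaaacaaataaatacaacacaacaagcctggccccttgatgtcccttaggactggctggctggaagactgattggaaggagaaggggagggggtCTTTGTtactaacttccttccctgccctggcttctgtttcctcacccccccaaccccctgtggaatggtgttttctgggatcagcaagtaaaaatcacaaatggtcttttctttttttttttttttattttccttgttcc
Abcb1a, chr5:8566841-8567090, plus strand: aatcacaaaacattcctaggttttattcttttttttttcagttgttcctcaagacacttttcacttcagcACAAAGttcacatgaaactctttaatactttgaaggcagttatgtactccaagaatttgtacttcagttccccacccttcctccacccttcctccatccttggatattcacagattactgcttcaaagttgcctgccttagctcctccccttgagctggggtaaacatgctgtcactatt
Tek, chr4:94739039-94739288, plus strand: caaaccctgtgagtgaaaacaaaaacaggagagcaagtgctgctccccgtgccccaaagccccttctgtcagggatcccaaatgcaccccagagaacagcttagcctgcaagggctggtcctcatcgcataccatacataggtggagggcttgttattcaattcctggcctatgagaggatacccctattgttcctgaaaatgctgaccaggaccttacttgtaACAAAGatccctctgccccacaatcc
Flt1, chr5:147726012-147726261, minus strand: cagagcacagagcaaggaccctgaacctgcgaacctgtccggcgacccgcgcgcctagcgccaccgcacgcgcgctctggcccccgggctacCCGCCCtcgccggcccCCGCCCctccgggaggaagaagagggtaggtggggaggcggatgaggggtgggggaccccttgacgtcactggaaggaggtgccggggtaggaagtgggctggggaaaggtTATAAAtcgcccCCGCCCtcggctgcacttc
Among the 7 motifs searched were an ETS core, written CCGGAA, and the E-box CACGTG. A sterol element was written as TCACNCCAC and the core of SOX factors as ACAAAG. The remaining motifs were the GC box GGGCGG, then the TATA box in the form TATAAA, and a GATA core in the form AGATAA. No pair of matches overlapped in the sequences shown. The Mfsd2a window held none of these letters, with a GC content of 61.6%. Slco1c1, Abcb1a and Tek each held 1 SOX core, starting at positions -140, -180 and -26 from the annotated start, where 16.5% of 32851 mouse promoter windows held at least 1. Flt1 held GC boxes at -158, -142 and -19 and a TATA box at -31, which 32.7% and 12.4% of all windows held. The letters describe these windows only.

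Per kilobase of exon, the mean level over the 36 samples was highest for Cldn5, the main claudin of brain endothelial tight junctions, at 25.5 CPM per kb. Mfsd2a followed with 10.2 CPM per kb and Slco1c1 with 9.69 CPM per kb. Abcb1a stood at 6.75, Flt1 at 4.46, Cdh5 at 3.91, Pecam1 at 3.30 and Tek at 3.06 CPM per kb. Ocln at 2.69 and Kdr at 1.77 CPM per kb were lowest. Between all neighbours in this order the ranges over samples overlapped, as for Mfsd2a (7.40 to 16.7 CPM per kb) and Slco1c1 (5.79 to 15.2 CPM per kb). Even the lowest Cldn5 sample, at 16.1 CPM per kb, was just under the highest Mfsd2a sample. The ratio of the highest to the lowest of the 8 group means ran from 1.16 for Tek to 1.70 for Cldn5, against a spread within groups (coefficient of variation) of 14.4% for Mfsd2a to 21.6% for Kdr.

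**Figure D1:**
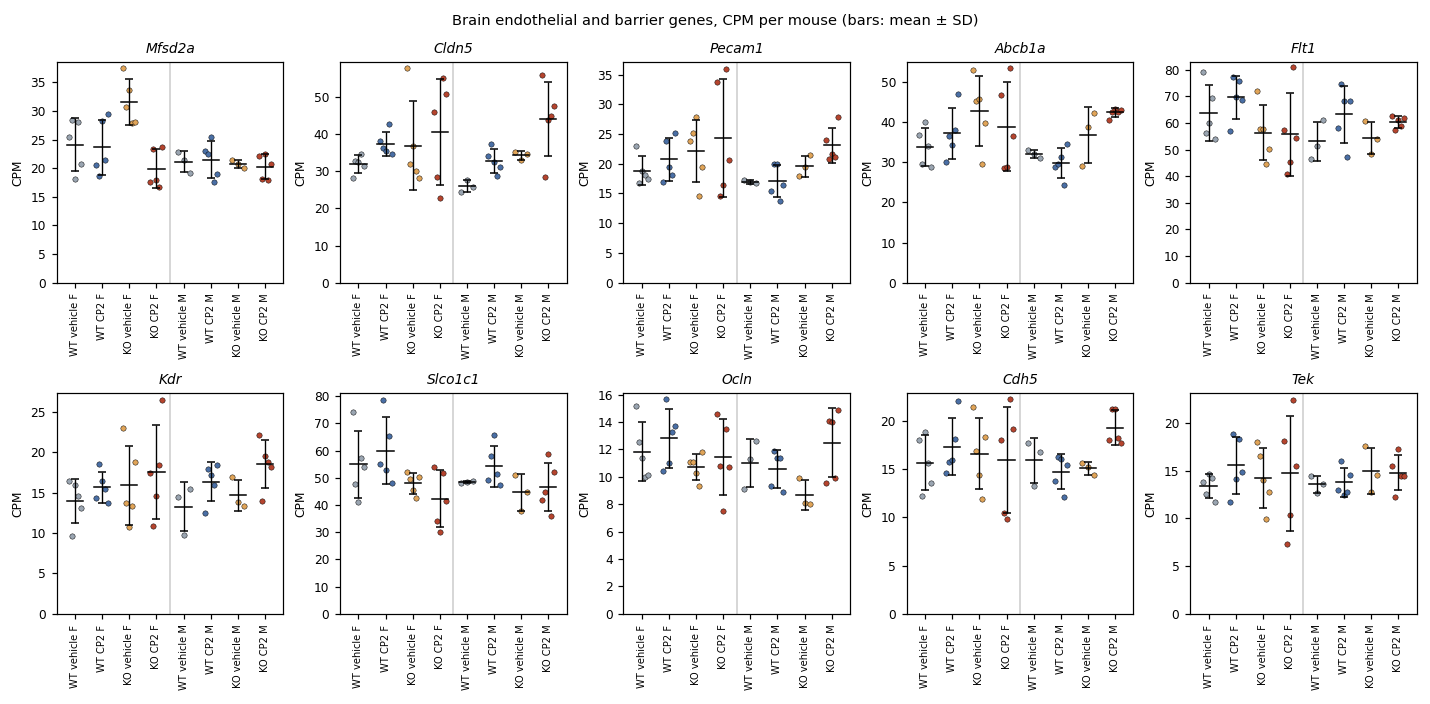
Level of each of the 10 genes in CPM (vertical axis, from 0) in each mouse (points), by group of genotype, treatment and title letter (horizontal axis); lines and bars are the group mean ± SD, with 5 mice per group and 3 in the vehicle M groups. Mfsd2a in KO vehicle F stands above KO CP2 F with no overlap, while most other genes are spread widely within KO CP2 F.

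Mfsd2a encodes a transporter that carries lysophospholipids with omega-3 fatty acids across the endothelium and holds down vesicle traffic through it. In KO mice of the F groups its level was lower with CP2. The KO vehicle F samples were at 37.5, 30.7, 33.7, 27.8 and 28.1 CPM, and the KO CP2 F samples at 17.6, 23.4, 17.9, 16.7 and 23.7 CPM. The lowest vehicle sample lay above the highest CP2 sample. The log2 fold change was -0.67 (SE 0.13), with an adjusted p of 0.0262 by edgeR's quasi-likelihood test. Mfsd2a was 1 of 10 members called in this comparison, in which 0.0859% of all 25601 genes tested were called, and 1 of 10 whose groups did not overlap, against 1.04% of all genes. The call was lost, at an adjusted p of 0.568, when only these 2 groups entered the fit, which then called 0 of 20446 genes, 1222 of them at an unadjusted p under 0.05; DESeq2 called 209 genes, Mfsd2a among them. It was also lost without KO CP2 F L233 (adjusted p 0.124), without KO vehicle F L246 (0.0745) or without KO vehicle F L279 (0.0663), with log2 fold changes of -0.61, -0.60 and -0.67.

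In the M groups the Mfsd2a values lay together. KO vehicle M samples were at 21.4, 20.7 and 20.0 CPM and KO CP2 M samples at 22.1, 18.1, 22.5, 18.0 and 20.7 CPM, with overlap. The log2 fold change of Mfsd2a was -0.03 (SE 0.15, adjusted p 0.947). The difference between the CP2 effects in F and M was itself tested: it was -0.64 (SE 0.20) with an adjusted p of 0.104, 1 of 10 members at an unadjusted p under 0.05 and 0 of 10 called, where 0.691% of genes were called. Without KO CP2 F L234 its adjusted p was 0.0494. Averaged over F and M, the log2 fold change of Mfsd2a with CP2 in KO was -0.35 (SE 0.098, adjusted p 0.0340), the 1 member called where 3.91% of genes were. That call was lost with the out-of-gene read share as a covariate (adjusted p 0.534, 0 genes called of 25601, 1932 at an unadjusted p under 0.05). It was lost as well without any 1 of 8 samples, with adjusted p between 0.0525 and 0.0888, among them the M sample with Xist reads, L291 (0.0532).

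The F vehicle groups put KO above WT by a smaller margin. WT vehicle F samples had 25.4, 28.4, 18.1, 28.0 and 20.7 CPM of Mfsd2a, so that the highest WT samples reached into the range of KO vehicle F. The log2 fold change was 0.39 (SE 0.13) and the adjusted p 0.0695. DESeq2 gave an adjusted p of 0.0374, and leaving out KO vehicle F L283 or WT vehicle F L277 gave 0.0429 and 0.0445. This comparison and that of CP2 in KO F share the KO vehicle F samples, which had the highest mean of the 8 groups, 31.6 ± 4.09 CPM (SD, n = 5); KO CP2 F had the lowest, 19.8 ± 3.43 CPM (SD, n = 5). In WT, the averaged log2 fold change of Mfsd2a with CP2 was -0.003, with an SE of 0.099. The interaction of genotype and CP2 was -0.34 (SE 0.14, adjusted p 0.230). No member was called for it, with 1 of 10 at an unadjusted p under 0.05, where 0.715% of genes were called.

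Beside the difference of Mfsd2a in KO F, the summed level of the 12 endothelial markers was 337 ± 55.1 CPM in KO vehicle F and 350 ± 91.1 CPM in KO CP2 F (SD, n = 5 each). Astrocyte markers, for cells that wrap the vessels, summed to 1180 to 1910 CPM and 1330 to 2880 CPM in the same groups. The out-of-gene read share was 9.24% ± 2.56 and 7.54% ± 2.13 (SD, n = 5 each), and with this share as a covariate the F difference in Mfsd2a was -0.66 (adjusted p 0.0463).

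Cldn5 and Ocln are membrane proteins of the tight junction, while Pecam1 and Cdh5 (VE-cadherin) are adhesion proteins of endothelial contacts. None of the 4 was called by edgeR in any of the 14 comparisons. Of their 56 values, 6 had an unadjusted p under 0.05, and DESeq2 called 1, Ocln for CP2 in KO M. In M with CP2, all 4 had log2 fold changes above 0 in KO. Pecam1 was at 24.0, 20.8, 21.7, 21.1 and 27.8 CPM in KO CP2 M and at 15.4, 19.9, 19.9, 13.7 and 16.5 CPM in WT CP2 M, without overlap. Its log2 fold change was 0.43 (SE 0.19, adjusted p 0.151). Cdh5 was at 18.0, 21.3, 21.3, 18.3 and 17.7 CPM in KO CP2 M and at 13.8, 16.3, 16.1, 12.1 and 15.5 CPM in WT CP2 M, again without overlap, with a log2 fold change of 0.39 (SE 0.17, adjusted p 0.155). Cldn5 reached 55.9 CPM in KO CP2 M and was at 28.5 CPM there in L291, just under the WT CP2 M range of 28.9 to 37.4 CPM. Its log2 fold change was 0.43 (SE 0.19, adjusted p 0.161), or 0.55 without L291 (adjusted p 0.0639).

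These values depended on the fit. Fitted on the WT CP2 M and KO CP2 M samples alone, Pecam1 and Cdh5 were called together with Abcb1a, in a fit that called 4009 of 20621 genes. With the out-of-gene read share as a covariate, the log2 fold change of Pecam1 was 0.98 (adjusted p 0.00225). That share was 7.33% ± 1.40 (SD, n = 5) in KO CP2 M and 11.5% ± 1.64 (SD, n = 5) in WT CP2 M, so it moved with this comparison, and within groups it had a correlation of 0.65 with Pecam1 over the 36 samples. Markers of other cell types also moved with this comparison, in which 9.99% of all genes were called. Of the microglia markers tested, 5 of 6 were called higher in KO, with a summed level of 351 to 462 CPM in KO CP2 M and 276 to 347 CPM in WT CP2 M. Of the fibroblast markers, 4 of 6 were called higher (196 ± 44.0 against 112 ± 19.2 CPM, SD, n = 5 each), and of the astrocyte markers 2 of 5 (1760 to 3010 against 1210 to 1530 CPM). Of the brain endothelium markers, 6 of which are among the 10 genes, 1 of 12 was called higher (314 to 396 against 268 to 346 CPM). Pericyte markers, which come from the cells around capillaries, summed to 229 to 251 CPM in KO CP2 M and 179 to 204 CPM in WT CP2 M, with none of 7 called by edgeR or DESeq2 and 1 at an unadjusted p under 0.05 by edgeR. The part of these cell types in the values of Pecam1, Cdh5, Cldn5 and Abcb1a was not tested.

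In M with vehicle, Cldn5 was at 35.3, 33.1 and 34.6 CPM in KO and at 24.5, 27.7 and 25.7 CPM in WT, and Pecam1 at 17.9 to 21.4 CPM in KO and 16.7 to 17.3 CPM in WT. Both pairs of groups were apart, but so were those of 20.9% of all genes with 3 mice a group. The log2 fold change of Cldn5 was 0.40 (SE 0.25, adjusted p 0.540). No member was called here, none was at an unadjusted p under 0.05, and 0.516% of genes were called. Ocln was lowest in KO vehicle M, at 9.94, 8.10 and 8.03 CPM, and at 9.57, 14.1, 14.0, 9.89 and 14.9 CPM in KO CP2 M. The 2 KO M groups overlapped for Ocln, with a log2 fold change for CP2 of 0.53 (SE 0.18, adjusted p 0.0767). DESeq2 called it (adjusted p 0.0490), as did the edgeR fit without KO CP2 M L298 (0.0376). That is 0 of 10 members called by edgeR, 1 at an unadjusted p under 0.05, where 5.10% of genes were called. Cdh5 was the 1 member of 10 without overlap between KO CP2 M and KO vehicle M (highest vehicle sample 15.7 CPM, lowest CP2 sample 17.7 CPM), against 15.3% of all genes.

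Slco1c1 is a carrier of thyroid hormone found in brain endothelium and in the choroid plexus. With CP2 it was lower in KO than in WT. The KO CP2 F samples were at 53.8, 34.2, 30.0, 51.9 and 41.4 CPM and the WT CP2 F samples at 55.0, 78.7, 52.7, 65.5 and 48.0 CPM. The KO CP2 M samples were at 41.9, 44.8, 58.6, 35.8 and 52.1 CPM and the WT CP2 M samples at 49.1, 58.0, 65.7, 51.2 and 47.3 CPM. The ranges overlapped under both letters, and KO lay lower on average in both. Averaged over F and M, the log2 fold change was -0.36 (SE 0.11, adjusted p 0.0320), and Slco1c1 was 1 of 10 members called where 11.6% of genes were called. Within F it was -0.51 (SE 0.16, adjusted p 0.0935), and within M -0.22 (SE 0.16, adjusted p 0.438). With vehicle the average was -0.16 (SE 0.13, adjusted p 0.529), so whether CP2 mattered was tested by the interaction, -0.21 (SE 0.17, adjusted p 0.618).

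The call of Slco1c1 was near the threshold. It was lost with no filter on low counts (adjusted p 0.0624), with the out-of-gene read share as a covariate (0.0909), with only the groups compared in the fit (0.0586) and without any 1 of 8 samples (0.0551 to 0.0759), among them KO CP2 M L266 (0.0565). DESeq2 kept it, at 0.00785. Choroid plexus markers varied more between samples than Slco1c1 did. They summed to 657 to 3590 CPM in KO CP2 F, 955 to 3220 CPM in WT CP2 F, 211 to 2890 CPM in KO CP2 M and 786 to 1980 CPM in WT CP2 M. None of the 12 markers was called by edgeR between KO and WT with CP2, 1 had an unadjusted p under 0.05, and DESeq2 called 1, Prlr, the prolactin receptor. Their sum had a correlation with Slco1c1 within groups of 0.632 over the 36 samples, and their part in the difference was not tested.

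Abcb1a encodes P-glycoprotein, the efflux pump that returns many drugs to the blood. In the M groups with CP2 it was higher in KO. KO CP2 M samples were at 40.5, 42.6, 43.3, 42.7 and 43.2 CPM, a narrow range, and WT CP2 M samples at 28.9, 29.6, 31.3, 24.3 and 34.6 CPM. No KO sample overlapped with WT. The log2 fold change was 0.51 (SE 0.15, adjusted p 0.0255), and Abcb1a was 1 of 10 members called where 9.99% of genes were called. Abcb1a, Pecam1 and Cdh5 were the 3 of 10 members without overlap in this comparison, against 11.1% of all genes. The call was lost with no filter on low counts (adjusted p 0.0537) and without KO CP2 M L292 or L299 or WT CP2 M L259, L262 or L267 (0.0505 to 0.0648). With the out-of-gene read share as a covariate the log2 fold change was 0.88 (adjusted p 0.00219). Without KO CP2 M L266, the lowest of its group, it was 0.53 (adjusted p 0.0386).

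In F with CP2 the Abcb1a groups lay together, with a log2 fold change of 0.06 (SE 0.15, adjusted p 0.899). KO CP2 F samples ran from 28.7 to 53.6 CPM and WT CP2 F samples from 30.0 to 47.1 CPM. Whether the KO effect with CP2 differed between F and M was not tested. In F with CP2 no member was called by edgeR, 2 of 10 (Flt1 and Slco1c1) had an unadjusted p under 0.05, DESeq2 called Slco1c1 (adjusted p 0.0326), and 2.00% of all genes were called. No member was without overlap there, against 3.02% of all genes. In F with vehicle KO samples had 29.6 to 53.1 CPM of Abcb1a and WT samples 28.9 to 40.1 CPM, with a log2 fold change of 0.34 (SE 0.15, adjusted p 0.196). That value was 0.05 with the out-of-gene read share as a covariate (adjusted p 0.945). Abcb1a overlaps a gene on the opposite strand, Gm42686, by 553 bases in the annotation used for names, and that gene had 314 counts over all samples.

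Flt1 and Kdr are the receptors of VEGF, Flt1 binding it tightly with weak signalling and Kdr carrying the growth signal. Tek is the receptor of the angiopoietins, which steady vessels. None of these receptors was called by edgeR or DESeq2 in any of the 14 comparisons, and 1 of their 42 values had an unadjusted p under 0.05 by edgeR. Flt1 was at 57.3, 40.7, 45.5, 80.9 and 54.2 CPM in KO CP2 F and at 56.8, 77.3, 69.7, 75.8 and 68.7 CPM in WT CP2 F. L233 of KO CP2 F was above all WT samples while the other 4 were at 57.3 CPM or less. The log2 fold change was -0.32 (SE 0.15, adjusted p 0.266), and -0.50 without that sample (adjusted p 0.0429). Kdr had its largest difference with CP2 in KO M, 0.34 (SE 0.22, adjusted p 0.440), where KO CP2 M samples ran from 14.0 to 22.2 CPM and KO vehicle M samples from 13.3 to 16.9 CPM. Tek group means ran only from 13.4 ± 1.22 CPM in WT vehicle F to 15.6 ± 2.99 CPM in WT CP2 F (SD, n = 5 each), and the averaged log2 fold changes of Tek were between 0.01 and 0.12 in the 4 comparisons of genotype or treatment.

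**Figure D2:**
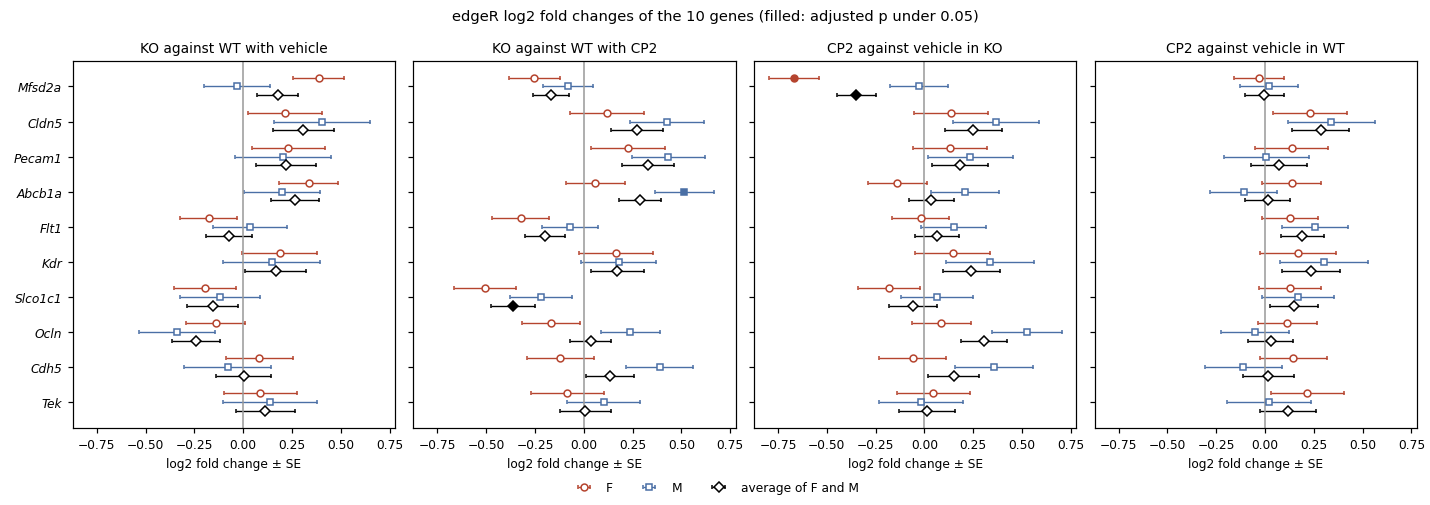
Log2 fold change with its SE (horizontal axis) of each of the 10 genes (vertical axis) in F, in M and averaged over both, for the knockout effect with vehicle, the knockout effect with CP2, the CP2 effect in KO and the CP2 effect in WT. Filled symbols mark an adjusted p under 0.05 by edgeR, which are Mfsd2a for CP2 in KO (F and averaged), Slco1c1 averaged with CP2 and Abcb1a in M with CP2.

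Across the set, the knockout effect with vehicle called no member. Averaged over F and M, 1 of 10 had an unadjusted p under 0.05 (Abcb1a), DESeq2 called none, and 6.67% of all genes were called. The members' median log2 fold change was 0.14, against 0.02 over all genes tested, with 7 of 10 above 0, as were 53.5% of all genes. The mean out-of-gene read share was 9.24% in KO vehicle F and 5.995% in WT vehicle F. The summed level of 5 red cell genes was 92.5 ± 22.3 CPM in KO vehicle F and 206 ± 111 CPM in WT vehicle F (SD, n = 5 each), and 60.8 ± 24.7 CPM in KO vehicle M and 400 ± 268 CPM in WT vehicle M (SD, n = 3 each). Their part in these values was not tested. In F alone no member was called by edgeR, 2 of 10 had an unadjusted p under 0.05 (Mfsd2a and Abcb1a), and 4.96% of genes were called. No member was without overlap in F with vehicle, against 4.70% of all genes. The difference of this knockout effect between F and M called no member, with none at an unadjusted p under 0.05 and none called by DESeq2, where 0.102% of genes were called.

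No gene of the table was called for CP2 in WT. The share called was 0.0% of 25601 genes by edgeR and none by DESeq2, 1031 genes had an unadjusted p under 0.05 by edgeR, and no member did. The members' averaged log2 fold changes in WT ran from -0.003 for Mfsd2a to 0.29 for Cldn5 (SE 0.15), with a median of 0.09 against 0.01 over all genes. Within WT F no member was without overlap, against 0.605% of all genes, and within WT M 1 of 10 was, Cldn5, against 4.54%. Cldn5 was at 34.3, 37.4, 32.6, 28.9 and 31.1 CPM in WT CP2 M and at 24.5 to 27.7 CPM in WT vehicle M, with a log2 fold change of 0.34 (SE 0.22).

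Between the letters, Mfsd2a was lower in M than in F. Averaged over genotype and treatment the log2 fold change was -0.23 (SE 0.070, adjusted p 0.0308). It was 1 of 10 members called where 10.3% of genes were. All 10 members had a value under 0, with a median of -0.10, whereas 50.2% of all genes tested had a value above 0. Some were near 0, as Kdr at -0.01 (SE 0.10) and Cdh5 at -0.02 (SE 0.093), and 1 of 10 had an unadjusted p under 0.05. Most members varied together within groups, so their shared sign is not 10 separate results. In M, Mfsd2a group means were 20.3 to 21.5 CPM, and in F 19.8 to 31.6 CPM, and KO CP2 F, at 19.8 CPM, was the one F group under the M groups. The call was lost with the out-of-gene read share as a covariate (adjusted p 0.315), under which Pecam1 was called instead, and without KO vehicle F L246, KO vehicle M L319 or L322, or WT vehicle M L303 (0.0501 to 0.0709).

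Within groups, 9 of the 10 genes varied together. Over the 36 pairs of genes that leave out Mfsd2a, the correlation of log2 CPM within groups had a median of 0.546 and ran from 0.148 to 0.830 (36 samples, which share library and depth effects within each mouse). Pecam1 and Abcb1a had the highest value, 0.830, followed by Flt1 with Tek and Abcb1a with Cdh5, both 0.794, and Slco1c1 with Ocln, 0.724. For the 9 pairs with Mfsd2a the median was 0.037, from -0.096 with Tek to 0.201 with Cldn5. In KO CP2 F, L233 had 9 of the 10 genes above the group mean and L201 had 9, while L216 had 1 and L227 none. For Tek these samples read 22.4, 18.1, 7.27 and 10.4 CPM, the lowest and the highest Tek values of all 36 samples among them. In KO vehicle F, L246 had all 10 genes above the group mean and L282 had none. The out-of-gene read share was 10.1% and 6.86% in those samples. Within groups that share had its highest correlation with Pecam1 (0.650), then Abcb1a (0.555) and Flt1 (0.466), and it was 0.043 for Mfsd2a and -0.108 for Kdr. Pericyte markers, summed, had within-group correlations of 0.847 with Cdh5 and 0.803 with Tek, and 0.027 with Mfsd2a.

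**Figure D3:**
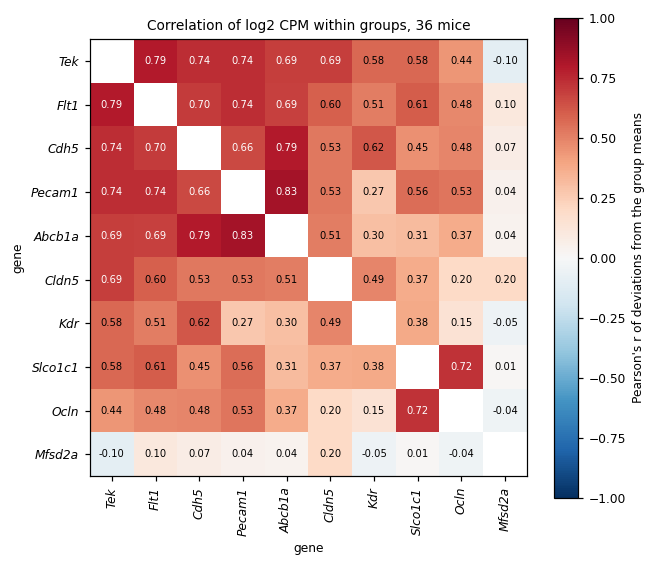
Pearson correlation of log2 CPM between each pair of the 10 genes (both axes), computed on the deviations of the 36 mice from their group means, as a colour from -1 to 1 and as a printed value. The 9 genes other than Mfsd2a are all positive with each other, from 0.15 to 0.83, while the row of Mfsd2a lies between -0.10 and 0.20.

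The genes most like each member, over all 36 samples and among 15420 genes with a mean of at least 1 CPM, are given as a description. Mfsd2a was most like Fgfr3 (0.705), a fibroblast growth factor receptor, then Adipor2 (0.698), an adiponectin receptor, and Tsc22d3 (0.657), a gene known as a glucocorticoid target. Pecam1 and Abcb1a were most like Adgrf5 (0.856 and 0.827), an adhesion receptor of endothelium, and each other (0.851), and the third for Pecam1 was Erg (0.796), an endothelial ETS factor. Tek and Cdh5 were both like Ptprb (0.750 and 0.793), the endothelial phosphatase that acts on Tek. Kdr and Cldn5 were both like Cd93 (0.80 and 0.704), and Cldn5 was most like Foxq1 (0.713). Flt1 was most like Tek (0.709) and Slco1c1 (0.683). Ocln was most like Cgnl1 (0.761), a tight junction protein. Slco1c1 was most like Prlr (0.816), Wdr63 (0.750) and Kl (0.739); Prlr and Kl are among the 12 choroid plexus markers.

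Vegfa, Vegfb and Apln, which encode ligands of vascular receptors, were lower in KO brain with vehicle. Of 23 other genes of VEGF, angiopoietin, Notch and apelin signalling, all tested, 3 were called lower and none higher in KO with vehicle, averaged over F and M, with a list median of 0.01 (log2) against 0.02 over all genes, where 6.67% of all genes were called. Vegfa, the main ligand of Flt1 and Kdr, had a log2 fold change of -0.40 (SE 0.074, adjusted p 0.000766). It was at 51.7, 41.6, 52.4, 43.5 and 43.7 CPM in KO vehicle F and at 69.4, 53.2, 60.8, 58.3 and 53.1 CPM in WT vehicle F, and at 50.7, 50.4 and 44.9 CPM against 70.8, 65.8 and 64.4 CPM in M. The KO and WT groups of Vegfa did not overlap in F or in M, against 4.70% and 20.9% of all genes. Vegfa was called within F (-0.34, adjusted p 0.0216) but not within M. Vegfb, a ligand of Flt1 alone, fell by 0.37 (SE 0.053, adjusted p 4.74e-05). Apln, the ligand apelin, made by endothelial tip cells and by neurons, fell by 1.04 (SE 0.19, adjusted p 0.00117). These 3 calls held with the out-of-gene read share as a covariate (adjusted p 0.0240, 0.00416 and 0.0394).

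With CP2, 2 of the 23 were called lower and 1 higher in KO, with a list median of -0.015 against 0.012 over all genes, where 11.6% of all genes were called. Averaged over F and M, Vegfa fell by 0.54 (SE 0.064, adjusted p 7.17e-07). Its log2 fold change was -0.74 within M (adjusted p 2.02e-06) and -0.34 within F (adjusted p 0.0394). The M levels were 76.9 ± 6.77 CPM in WT CP2 M and 46.2 ± 6.20 CPM in KO CP2 M (SD, n = 5 each). Averaged over F and M, Apln fell by 0.65 (SE 0.16, adjusted p 0.00792). Vegfb was not called in this averaged comparison: it was at 59.7 ± 4.31 CPM in KO CP2 F and 71.2 ± 4.92 CPM in WT CP2 F (SD, n = 5 each), a called difference of -0.25 (adjusted p 0.0298). In M it ran from 63.2 to 70.2 CPM in KO CP2 and from 55.6 to 67.3 CPM in WT CP2. Angpt1, the ligand that activates Tek, was higher by 0.37 (SE 0.095, adjusted p 0.00782), at 12.2 ± 1.63 CPM in KO CP2 M and 7.33 ± 0.902 CPM in WT CP2 M but 8.34 ± 1.37 and 8.29 ± 0.775 CPM in F (SD, n = 5 each). CP2 raised Vegfb in KO by 0.21 (SE 0.050, adjusted p 0.0132), and the interaction of genotype and CP2 for Vegfb was 0.30 (SE 0.070, adjusted p 0.0350). Vegfb means in KO were 59.0 CPM with vehicle and 59.7 CPM with CP2 in F. In M, KO samples ran from 48.3 to 50.7 CPM with vehicle and from 63.2 to 70.2 CPM with CP2, and the CP2 difference was called there (0.40, adjusted p 0.00137). Neither the averaged Vegfb call nor that of the interaction held with the out-of-gene read share as a covariate (adjusted p 0.603 and 0.574). For the F minus M difference of the CP2 effect in KO, none of the 23 was called, where 0.691% of all genes were.

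Wnt7a, the Wnt ligand that maintains the barrier in forebrain, was lower in KO as well. Averaged over F and M, it fell by 0.52 with vehicle (SE 0.12, adjusted p 0.00747) and by 0.39 with CP2 (SE 0.11, adjusted p 0.0117). Wnt7a was not called within F or within M, with vehicle or with CP2. Its level was 15.4 ± 1.43 CPM in WT vehicle F and 11.1 ± 2.87 CPM in KO vehicle F (SD, n = 5 each), and the vehicle call was lost with the covariate (adjusted p 0.162). Of the 17 Wnt pathway genes, 1 was called lower with vehicle and none higher (list median -0.08), where 6.67% of all genes were called. With CP2 the coreceptor Lrp6 was also lower (-0.17, adjusted p 0.0459), a call that held in 3 of 5 other settings and 6 of 20 fits with 1 sample left out. In the same comparison 3 were higher: the target and inhibitor Apcdd1 (0.50, SE 0.095, adjusted p 0.000505), the receptor Fzd6 (0.30) and the transducer Ctnnb1 (0.14). The list median with CP2 was -0.02 against 0.01 over all genes, where 11.6% of all genes were called.

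**Figure D4:**
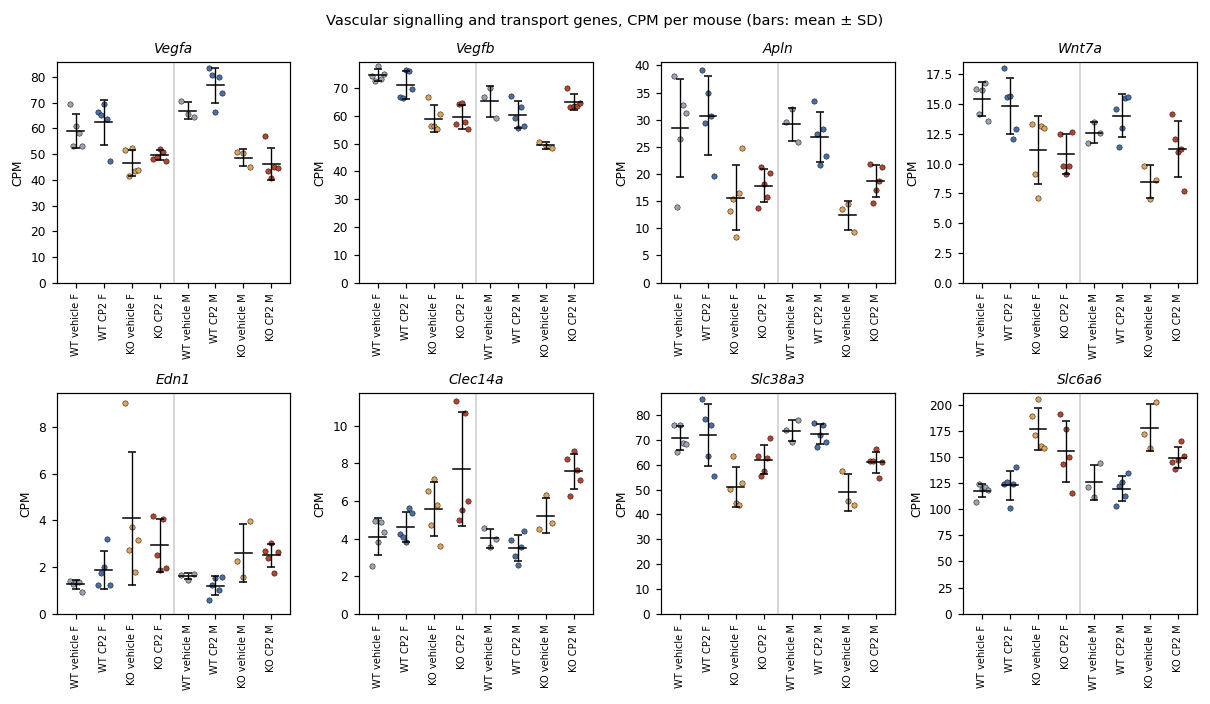
Level in CPM (vertical axis, from 0) of 5 signalling genes (Vegfa, Vegfb, Apln, Wnt7a, Edn1), the endothelial gene Clec14a and 2 carriers (Slc38a3, Slc6a6) in each mouse (points) by group (horizontal axis), with the group mean ± SD. Vegfa in KO vehicle samples, 41.6 to 52.4 CPM, lies under WT vehicle, 53.1 to 70.8 CPM.

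In KO with vehicle, 3 of 24 other transporter genes of the barrier passed the test, 2 higher and 1 lower (list median 0.09), where 6.67% of all genes were called. Slc38a3, a glutamine carrier also found in astrocytes, fell by 0.53 (SE 0.078, adjusted p 5.82e-05), with 43.9 to 63.7 CPM in KO vehicle F and 65.3 to 76.1 CPM in WT vehicle F. Slc6a6, the taurine carrier, was higher by 0.55 (SE 0.082, adjusted p 9.16e-05), with 159 to 206 CPM against 107 to 124 CPM in the same groups. Neither pair of groups overlapped, against 4.70% of all genes. Tfrc, the transferrin receptor, was higher by 0.32 (adjusted p 0.0361), a call lost with the covariate (0.368). With CP2 the same signs held for Slc38a3 (-0.23) and Slc6a6 (0.33), and Slc16a1 (0.33), a lactate carrier, and Abcg2 (0.30), a drug efflux pump, were called higher, so 4 of 24 were called where 11.6% of all genes were. In KO, CP2 raised Slc38a3 by 0.30 (SE 0.074, adjusted p 0.0151), a call lost with the covariate (0.415).

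Among 20 other tight junction genes, 1 was called lower and 1 higher in KO with vehicle, averaged over F and M. The share over all genes was 6.67%. Cldn10 was lower by 0.38 (SE 0.084, adjusted p 0.00462) and Lsr, a protein of tricellular contacts, higher by 0.47 (SE 0.14, adjusted p 0.0428). Both calls were lost with the covariate (adjusted p 0.133 and 0.296), and none of the 20 was called within F or within M. With CP2 none of the 20 was called by edgeR between KO and WT averaged over F and M, 2 had an unadjusted p under 0.05, and DESeq2 called 1, Cldn11. CP2 in KO raised F11r, a junctional adhesion molecule, by 0.43 (SE 0.12, adjusted p 0.0253) and Cldn10 by 0.34 (SE 0.079, adjusted p 0.0113), averaged over F and M, where 3.91% of all genes were called. In F the KO means with vehicle and CP2 were 9.97 and 9.99 CPM for F11r and 23.8 and 24.8 CPM for Cldn10. In M they were 7.23 and 13.1 CPM for F11r, and 16.8 and 25.8 CPM for Cldn10, and both were called there (0.86 and 0.62). Neither averaged call held with the covariate (0.402 and 0.585). For the F minus M difference of the CP2 effect in KO, none of the 20 was called, where 0.691% of all genes were. Of 28 further genes of endothelial identity, 1 was called in KO with vehicle, where 6.67% of all genes were called. This was Erg, higher by 0.53 (SE 0.17, adjusted p 0.0499). The Erg call held in 2 of 5 other settings and in 3 of 16 fits with 1 sample left out. With CP2, 4 were called higher and 2 lower, where 11.6% of all genes were called. Clec14a, an endothelial lectin, was higher by 0.93 averaged over F and M (SE 0.15, adjusted p 4.03e-05). Its log2 fold change was 0.74 within F (adjusted p 0.0494) and 1.12 within M (adjusted p 0.000422). It was at 8.24, 6.24, 8.63, 7.63 and 7.13 CPM in KO CP2 M and 3.92, 3.08, 2.57, 3.54 and 4.38 CPM in WT CP2 M. These M groups did not overlap, against 11.1% of all genes. On average over F and M, Ctla2a was higher by 0.61 (adjusted p 0.0414), and Palmd and Ppard were lower, by -0.39 and -0.28. The Ctla2a call held in 5 of 5 other settings but in 7 of 20 fits with 1 sample left out. Fitted log2 fold changes of the identity list had a median of 0.07 with CP2, against 0.01 over all genes.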

How the data were processed

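The deposited table holds raw counts per Ensembl gene, made by the authors with STAR and HTSeq on GRCm39, per the submitters' processing notes; versions, annotation release, strandedness and read filters are not given in the sources used here. PolyA-enriched RNA was made into Illumina libraries, per the labels' protocols. The 5 summary lines of the table were left out. Symbols and exon lengths came from GENCODE M21, which named 52073 of 56980 identifiers (91.4%), so no gene coordinates are given. Promoters are from a GRCm38.p6 table, not the authors' build.

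All 36 samples were fitted with 1 coefficient per group in edgeR 4.0.16 (R 4.3.3; TMM, filterByExpr, robust glmQLFit and glmQLFTest), and 25601 genes were tested in 14 comparisons. Within each comparison the Benjamini-Hochberg adjustment ran over all genes tested, with calls made at an adjusted p under 0.05. SE is the log2 fold change over the square root of F. CPM uses TMM library sizes, and log2 CPM a prior count of 2. The functions were tested on simulated counts. No overlap means that the CPM ranges of the groups were apart. Sample numbers are unique, so nothing was paired; the labels do not say more about the source of samples, and p-values measure the spread between these samples.

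The 10 genes, the 10 pathway lists and the 13 marker lists were chosen with earlier results of these data known. From each list and averaged comparison, up to 2 called genes each way with the largest fold change and a mean of at least 1 CPM were named, or all where a list had 5 calls or fewer. Likeness is Pearson correlation of log2 CPM over samples. Alternatives were scaling by relative log expression, no filter on low counts, the out-of-gene read share as a covariate, a fit of only the groups compared, DESeq2 1.42.0, and leaving out each sample in turn. One gene of the activation list is not reported here.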

Additional observations from a re-analysis of the deposited data

Results flagged for a closer look

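Abcb1a in KO CP2 M had 1 sample apart from the rest of its group. L266 was at 40.5 CPM and the nearest other sample at 42.6 CPM, a gap of 0.762 of the group's whole range, which is above the limit for 5 samples. The whole range of the group was narrow, and the sample lay above all WT CP2 M samples. Of 60 sets of a gene and a group of 5 samples examined, 1 stood out in this way, where chance gives about 1 in 20.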

How the results depend on the processing

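The number of members called stayed the same under all 5 alternatives and every left-out sample for KO against WT with vehicle averaged (0), KO against WT with vehicle in M (0), CP2 in WT averaged (0) and the F minus M difference of the KO effect (0), and under the 4 that apply to the interaction (0). With DESeq2, 1 member was called for KO against WT with vehicle in F (Mfsd2a), 1 for KO against WT with CP2 in F (Slco1c1), 1 for CP2 in KO M (Ocln) and 2 for KO against WT with CP2 averaged (Abcb1a, Slco1c1). With no filter, 0 were called for KO against WT with CP2 averaged, for the same in M and for CP2 in KO averaged. With the out-of-gene read share as a covariate, 2 were called for KO against WT with CP2 averaged and 2 in M (Pecam1 and Abcb1a in both), and 0 for CP2 in KO averaged. With only the groups compared in the fit, 0 were called for KO against WT with CP2 averaged, 3 in M (Pecam1, Abcb1a, Cdh5), and 0 for CP2 in KO averaged and in F. Leaving out 1 sample gave 0 to 2 calls for KO against WT with CP2 averaged, and 0 to 1 for KO against WT with vehicle in F, with CP2 in F and in M, CP2 in KO averaged, in F and in M, its F minus M difference, and M against F. Mfsd2a for CP2 in KO F was called in 7 of 10 such fits. No value of a member with an unadjusted p under 0.05 changed sign; among all 140 member values, 28 did so with the covariate, all with an unadjusted p of at least 0.167. No paired analysis was possible because no sample number is shared between groups. Counting error alone had an SD of 5.11% at the lowest member count, and the spread within groups of 3 or 5 mice was 14.4% (Mfsd2a) to 21.6% (Kdr). With the covariate, the genes called for CP2 in KO averaged went from 1002 to 0, and for M against F from 2630 to 140. What limits these comparisons was not tested.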

Other observations

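Of 13 genes of vessel activation tested, 1 was called in KO with vehicle averaged over F and M, where 6.67% of all genes were called. With CP2, 3 were called, all higher and Edn1 and Ackr1 among them, where 11.6% of all genes were called. Edn1, the constrictor peptide endothelin, was higher in KO with vehicle, with a log2 fold change of 1.19 (SE 0.27, adjusted p 0.00581) and with CP2 by 0.85 (SE 0.23, adjusted p 0.0129). Its level was 9.04, 2.75, 3.70, 1.77 and 3.18 CPM in KO vehicle F and 0.934 to 1.40 CPM in WT vehicle F. In M with vehicle Edn1 was not called. It was at 2.24, 1.57 and 3.98 CPM in KO and at 1.67, 1.45 and 1.72 CPM in WT, with overlap. Ackr1, a chemokine-binding receptor of venules, was called higher in KO with CP2, by 0.30. With the out-of-gene read share as a covariate the vehicle call of Edn1 was lost (adjusted p 0.183). Of 8 genes of caveolae, 1 was called in KO with CP2, where 11.6% of all genes were: Cavin1, higher by 0.45 (SE 0.12, adjusted p 0.0108). None was called with vehicle (1 with an unadjusted p under 0.05, 0 called by DESeq2). None of 15 pericyte and smooth muscle genes was called by edgeR between KO and WT, averaged, with vehicle (0 with an unadjusted p under 0.05 and 0 called by DESeq2) or with CP2 (2 and 1).

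In KO with CP2, averaged over F and M, the collagen gene Col3a1 and the proteoglycan gene Lum, 2 of 10 fibroblast genes, were higher by 0.77 (SE 0.23) and 0.56 (SE 0.16). Of 18 endfoot and basement membrane genes Sparc (0.47) and Lama2 (0.26) were higher and Agrn (-0.22) lower, where 11.6% of all genes were called. Within M the values were 1.01, 0.83, 0.66, 0.44 and -0.41 in this order, all called, where 9.99% of all genes were. Within F no gene of either list was called, where 2.00% of all genes were. Agrn, an organiser of the endfoot matrix, was also lower with CP2 in KO, by 0.23 averaged (SE 0.051, adjusted p 0.00802). The F minus M difference of this CP2 effect was 0.42 (SE 0.10, adjusted p 0.0468), called where 0.691% of all genes were. Agrn was not called for it with only the groups compared in the fit, which called 0 of 24260 genes, 2771 of them at an unadjusted p under 0.05. KO means of Agrn with vehicle and CP2 were 163 and 160 CPM in F, and 210.0 and 155 CPM in M. Averaged over groups Agrn was higher in M than in F by 0.25 (SE 0.036, adjusted p 7.86e-06), while KO CP2 M, at 155 CPM, was under KO CP2 F. CP2 in KO raised Itm2a by 0.35 (SE 0.075, adjusted p 0.00768) and Pltp, a phospholipid transfer protein, by 0.36 (SE 0.099, adjusted p 0.0347), averaged over F and M. KO means with vehicle and CP2 were 45.4 and 52.5 CPM in F and 45.7 and 63.8 CPM in M for Itm2a, and 53.5 and 58.8 CPM in F and 46.7 and 69.5 CPM in M for Pltp. Neither gene was called for the F minus M difference of this CP2 effect, nor was any of the 28 genes of endothelial identity. The Agrn, Itm2a and Pltp calls for CP2 in KO were lost with the covariate (adjusted p 0.722, 0.349 and 0.343).

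Red cell genes were lower in KO brain with vehicle, averaged over F and M. Of the 5, 4 were called, where 6.67% of all genes were, among them Hbb-bt with a log2 fold change of -2.42 (SE 0.51, adjusted p 0.00395). None of the 5 was called within F or within M, with an adjusted p for Hbb-bt of 0.152 and 0.0521. Their summed level was 92.5 ± 22.3 CPM in KO vehicle F and 206 ± 111 CPM in WT vehicle F (SD, n = 5 each), and 60.8 ± 24.7 and 400 ± 268 CPM in M (SD, n = 3 each). The WT vehicle M samples were at 437, 647 and 115 CPM.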
